A study of Mus musculus with 3 samples.

Results

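The genes of the mitochondrial genome were taken as all rows of the deposited expression table placed on chromosome MT, 13 of 35275 genes. All 13 were protein-coding, and the mitochondrial rRNA and tRNA genes were not analysed here. Expression had been measured by polyA RNA sequencing of bulk liver, with 1 library per group, and all mice were C57BL/6J males aged 10 weeks at the start of feeding. The control library came from untreated mice on normal chow. The NASH library (nonalcoholic steatohepatitis) represents mice fed western diet plus liquid fructose without treatment, labelled as 24 weeks. For the TH-treated NASH library this feeding lasted 16 weeks, after which T3 (35 ng/g) and T4 (7 ng/g), both thyroid hormones, were added to the 15% fructose water for 8 weeks. The labels do not say how many animals a library holds. A single library per group gives no replicate check of any difference, and no test between groups was possible. The names control, NASH and TH-treated NASH, or "after thyroid hormone" for the last, stand for these libraries.

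The mitochondrial genome is a small circle of DNA that encodes the core subunits of the respiratory chain and of ATP synthase. Complex I passes electrons from NADH to ubiquinone, complex III passes them on to cytochrome c, complex IV passes them to oxygen, and complex V makes ATP. Both strands are copied into long transcripts that are cut, mostly at the tRNAs between the genes, into shorter RNAs. Most of the mRNAs receive a polyA tail inside the mitochondrion. Thyroid hormone is known as a stimulus of mitochondrial content and mitochondrial transcription in rat liver. The genome encodes 7 subunits of complex I (mt-Nd1, mt-Nd2, mt-Nd3, mt-Nd4, mt-Nd4l, mt-Nd5 and mt-Nd6), 1 of complex III (mt-Cytb), 3 of complex IV (mt-Co1, mt-Co2 and mt-Co3) and 2 of complex V (mt-Atp6 and mt-Atp8). In map order the coding genes run mt-Nd1 (chrMT:2751-3707), mt-Nd2 (chrMT:3914-4951), mt-Co1 (chrMT:5328-6872), mt-Co2 (chrMT:7013-7696), mt-Atp8 (chrMT:7766-7969), mt-Atp6 (chrMT:7927-8607) and mt-Co3 (chrMT:8607-9390). They go on with mt-Nd3 (chrMT:9459-9806), mt-Nd4l (chrMT:9877-10173), mt-Nd4 (chrMT:10167-11544), mt-Nd5 (chrMT:11742-13565), mt-Nd6 (chrMT:13552-14070) and mt-Cytb (chrMT:14145-15288). Of these genes 12 lay on the plus strand and 1, mt-Nd6, on the minus strand. On the plus strand mt-Atp8 overlaps mt-Atp6 by 43 bases and mt-Nd4l overlaps mt-Nd4 by 7, with no tRNA between. The values of such a pair need not stand for separate RNAs. All 13 had the same position and strand in GENCODE M21 (build GRCm38), from which their sequences were read. The sources used here do not give the authors' genome build.

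Sequence divides the 13 genes, because a stretch of chromosome 1 carries a near-perfect copy of part of the mitochondrial genome. The table lists 7 pseudogenes there, all on the minus strand, whose GENCODE M21 symbols are Gm29216, Gm28661, Gm10925, Gm28437, Gm28438, Gm10222 and Gm28439. In that order they copy mt-Co1, mt-Co2, mt-Atp6, mt-Co3, mt-Nd3, mt-Nd4l and mt-Nd4, the order of the mitochondrial genes themselves. For 5 of these genes the copy reaches to within 3 bases of the whole length and is called whole-length here. Of the 7 copies, 5 held no substitution at all. Gm28661 shared 681 of 681 bases with mt-Co2, Gm10925 678 of 678 with mt-Atp6, Gm28437 783 of 783 with mt-Co3 and Gm10222 294 of 294 with mt-Nd4l. Gm28439 shared 876 of 876 bases with the first 63.6% of mt-Nd4 and left 502 bases of that gene without a copy. Gm28438 differed from mt-Nd3 at 1 of 345 bases, T3C, where the mitochondrial base comes first and positions count from 1 at the first base of the mitochondrial gene. Gm29216 covered the last 492 bases of mt-Co1, differed at 6 of them, all within its first bases, and then ran 479 bases without a difference. The starts of the 2 imperfect copies are printed beside the mitochondrial genes, with differing bases in capitals, because the rest of each stretch is the same in both genomes.
mt-Nd3, chrMT:9459-9488, plus strand: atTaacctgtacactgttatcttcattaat
Gm28438, chr1:24613090-24613119, minus strand: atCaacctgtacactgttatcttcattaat
mt-Co1, chrMT:6381-6410, plus strand: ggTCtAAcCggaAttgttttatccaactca
Gm29216, chr1:24616168-24616197, minus strand: ggATtGGcAggaTttgttttatccaactca
The whole of Gm10222 is the following run of mt-Nd4l, shown as the shortest gene with a perfect copy. The capitals mark its bases that also open the next gene, mt-Nd4.
mt-Nd4l, chrMT:9877-10170, plus strand: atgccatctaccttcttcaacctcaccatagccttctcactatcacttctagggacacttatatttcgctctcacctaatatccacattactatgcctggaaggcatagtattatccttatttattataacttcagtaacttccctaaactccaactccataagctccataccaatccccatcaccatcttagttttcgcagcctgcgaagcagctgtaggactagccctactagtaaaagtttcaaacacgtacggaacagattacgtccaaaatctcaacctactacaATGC
A read that lies wholly within such a stretch matches both places equally well. The sources used here do not say how the authors' counting treated such reads.

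The remaining genes had no such copy among the annotated transcripts. No nuclear transcript matched mt-Nd1 or mt-Atp8 at 80% identity or more over at least 100 bases. The closest matches of mt-Nd2, mt-Nd5, mt-Nd6 and mt-Cytb were 96.7%, 95.2%, 93.6% and 92.9% identical. mt-Atp8 lies between mt-Co2 and mt-Atp6, and the copies of these neighbours lie as far apart on chromosome 1 as the mitochondrial genes do, but the chromosome 1 sequence between them was not compared here. mt-Atp8 also shares its last 43 bases, in capitals, with mt-Atp6.
mt-Atp8, chrMT:7766-7969, plus strand: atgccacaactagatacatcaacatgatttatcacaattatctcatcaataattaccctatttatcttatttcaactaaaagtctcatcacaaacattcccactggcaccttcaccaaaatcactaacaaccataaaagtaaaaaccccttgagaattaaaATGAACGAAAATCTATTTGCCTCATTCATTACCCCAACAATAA
The mRNAs also end in 2 ways. In mt-Co3, mt-Nd4 and mt-Cytb the annotated gene stops after a lone T of the last codon, and in mitochondria the polyA tail is known to complete such a stop codon. The last 21 bases are printed with the last codon, or what there is of it, in capitals, beside mt-Nd1 and mt-Nd2, which encode a full stop codon.
mt-Co3, chrMT:9370-9390, plus strand: ccatttattgatgaggatctT
mt-Nd4, chrMT:11524-11544, plus strand: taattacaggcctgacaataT
mt-Cytb, chrMT:15268-15288, plus strand: aaatactaaaattatatccaT
mt-Nd1, chrMT:3687-3707, plus strand: ggagtaccaccatacataTAG
mt-Nd2, chrMT:4931-4951, plus strand: gccccccaactaattaccTAG

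Levels are given in FPKM, which divides the fragments of a gene by its length and by the size of the library. This allows genes of different length to be set side by side, with limits. Where a gene shares sequence with a nuclear copy, its fragments may be counted in part or not at all. Whether FPKM of the shortest genes, mt-Atp8, mt-Nd4l and mt-Nd3, is comparable with that of longer genes was not tested. The libraries held 54576236 fragments in control, 47009255 in NASH and 38303410 after thyroid hormone. mt-Co1, the catalytic subunit of complex IV, was the most abundant of the 13, at 11923 FPKM in control, 12781 in NASH and 15883 after thyroid hormone. Among all genes it ranked 3 by FPKM in control and NASH and 1 in TH-treated NASH. mt-Cytb, the cytochrome b of complex III, followed at 6909, 9055 and 12689 FPKM. The complex I subunits mt-Nd1 and mt-Nd2 came next, at 5859, 5739 and 9454 FPKM and at 5678, 5445 and 6764 FPKM. mt-Nd4, a proton-pumping subunit of complex I, stood at 2705, 3150 and 4735 FPKM, and mt-Nd5, another, at 1641, 1976 and 2562 FPKM. mt-Nd6, the complex I subunit on the minus strand, was the lowest of these 7, at 429 FPKM in control, 431 in NASH and 790.4 after thyroid hormone. These 7 genes kept the same order in all 3 libraries. Each rested on at least 10520 fragments per library.

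The 5 genes with a whole-length nuclear copy lay far below these 7 in every library. mt-Co2, the complex IV subunit that takes electrons from cytochrome c, stood at 101 FPKM in control, 79.6 in NASH and 202 after thyroid hormone. mt-Co3, the third core subunit of complex IV, stood at 98.5, 87.1 and 215 FPKM. mt-Atp6, the subunit of ATP synthase that forms part of its proton channel, stood at 82.8, 67.4 and 165 FPKM. The small complex I subunits mt-Nd3 and mt-Nd4l stood at 33.1, 35.5 and 77.8 FPKM and at 17.2, 13.3 and 21.4 FPKM. mt-Nd4l rested on 279, 186 and 244 fragments. mt-Co1 thus stood 118 times above mt-Co2 in control, 161 times in NASH and 78.6 times after thyroid hormone, although both encode core subunits of one complex. mt-Atp8, a small ATP synthase subunit, had 1 fragment in control, 2 in NASH and 1 after thyroid hormone, below the 3 fragments taken here as the floor. A gene of its length with 3 fragments would stand at 0.269, 0.313 and 0.384 FPKM, so no fold is given for it. The 2 genes with a part copy, mt-Co1 and mt-Nd4, lay among the high ones. If all of their fragments lay outside the copied stretch, mt-Nd4 would stand at 7427, 8646 and 12996 FPKM and mt-Co1 at 17494, 18753 and 23305 FPKM. How much of the low levels is due to shared sequence or to short gene length was not tested.

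**Figure D1:**
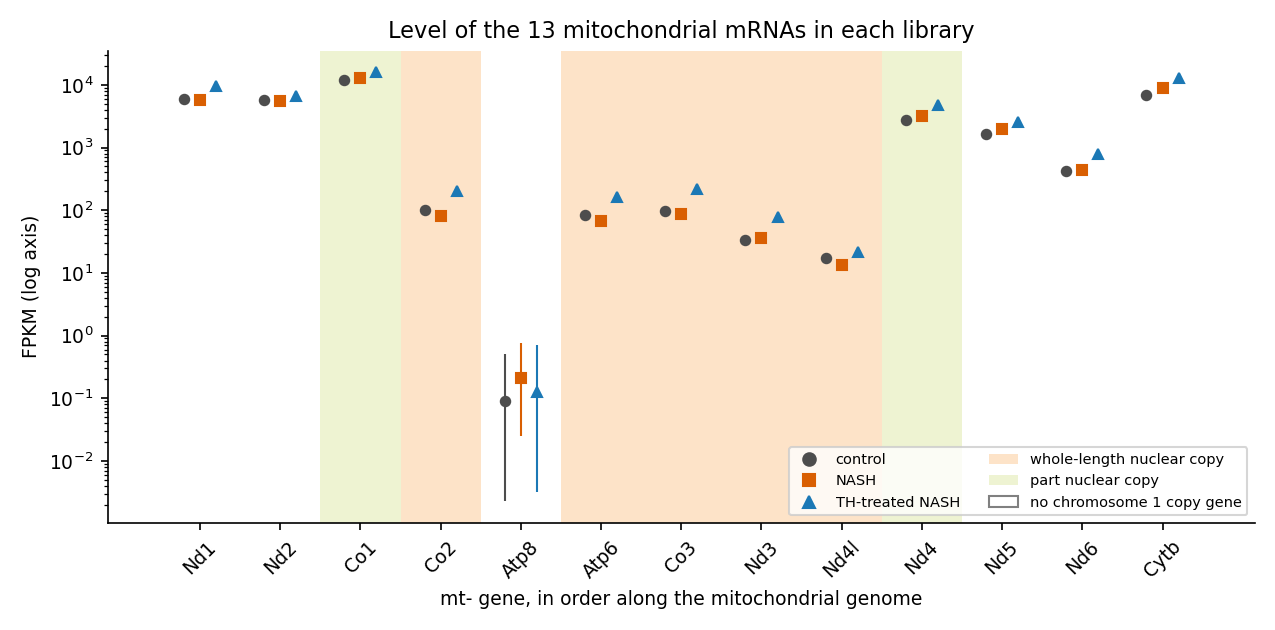
FPKM on a log axis for the 13 mitochondrial genes in genome order, 1 point per library with exact 95% Poisson intervals that cover counting error only. Orange bands mark the 5 genes with a whole-length copy on chromosome 1, which lie at 13.3 to 215 FPKM, green bands the 2 with a part copy, and the 7 genes outside orange bands other than mt-Atp8 lie between 429 and 15883 FPKM.

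The nuclear copies themselves were listed with reads. Gm28661, the copy of mt-Co2, stood at 116, 117 and 252 FPKM in control, NASH and TH-treated NASH, close to the levels of mt-Co2 itself. Gm28437, the copy of mt-Co3, stood at 116, 114 and 238 FPKM, and Gm10925, the copy of mt-Atp6, at 179, 178 and 318 FPKM. Gm10925 held 2.15, 2.63 and 1.92 times as many fragments as mt-Atp6. Gm28438 stood at 19.5, 22.0 and 56.8 FPKM, and Gm10222 at 19.3, 20.4 and 20.9 FPKM. In fragments, Gm28438 held 0.584, 0.613 and 0.723 times as many as mt-Nd3, and Gm10222 1.11, 1.52 and 0.963 times as many as mt-Nd4l. The part copies lay much further below their genes. Gm29216 stood at 169, 146 and 296 FPKM and Gm28439 at 46.0, 49.3 and 72.3 FPKM, while mt-Co1 held 221, 275 and 168 times the fragments of its copy and mt-Nd4 92.6, 101 and 103 times. Whether these fragments came from the mitochondrial or the nuclear sequence cannot be told apart where the sequences are identical.

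**Figure D2:**
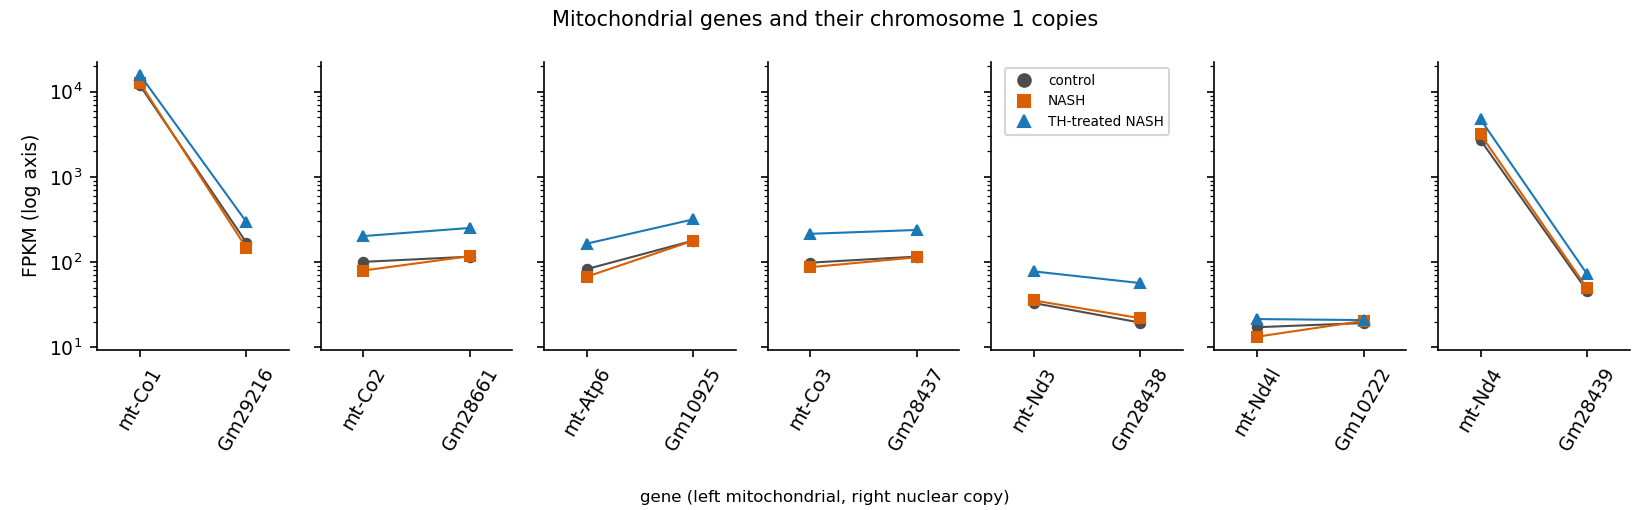
FPKM on a log axis for 7 mitochondrial genes (left in each panel) and their chromosome 1 copies (right), 1 line per library. Genes with a whole-length copy and their copies lie within the same order of magnitude, while mt-Co1 and mt-Nd4 lie far above their part copies.

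NASH against control set diet-fed livers beside chow-fed ones. mt-Cytb stood 1.31-fold higher in NASH (95% counting interval 1.31 to 1.32), mt-Nd5 1.20-fold higher (1.20 to 1.21), mt-Nd4 1.16-fold higher (1.16 to 1.17) and mt-Co1 1.07-fold higher (1.07 to 1.08). mt-Nd1 was 1.02-fold lower (1.02 to 1.03), mt-Nd2 was lower by 1.04-fold (1.04 to 1.05), and mt-Nd6 lay at 1.01-fold (0.98 to 1.03). Of the genes with whole-length copies, mt-Nd4l was 1.29-fold lower (1.07 to 1.56), mt-Co2 1.26-fold lower (1.20 to 1.33), mt-Atp6 1.23-fold lower (1.16 to 1.30) and mt-Co3 1.13-fold lower (1.08 to 1.18), and mt-Nd3 lay at 1.07-fold (0.96 to 1.20). The intervals cover counting error only, not differences between animals.

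None of the 12 genes with at least 1 FPKM was 1.5-fold off on the log2(FPKM + 1) scale in NASH, against 10.5% of 11499 genes that were that much higher and 2.57% that were lower. Of 682 nuclear genes with a mean of 100 FPKM or more, 5.43% were higher and 7.77% lower. All 12 reached 1 FPKM in every library. The median log2 ratio of all genes was 0.12, and 0.01 over all 13 mitochondrial genes, mt-Atp8 included. Directions this close to 0 depended on the scaling. TMM (trimmed mean) scaling moved all NASH-to-control log2 ratios by −0.22, and under it mt-Co1, mt-Nd3 and mt-Nd6 lay below control at 0.92-fold, 0.92-fold and 0.86-fold, while mt-Cytb lay at 1.13-fold, mt-Nd5 at 1.04-fold and mt-Nd4 at 1.001-fold. mt-Nd6 also lay below control, at 0.99-fold, when the 50 most abundant genes were left out of the scaling. For centring by gene length, genes under 1000 bases formed a group and those of 1000 to under 2000 bases another. Centred on the median of nuclear protein-coding genes of like length, the log2 ratios ran from −0.51 to 0.24, with a median of −0.18. By that measure 3 of 12 genes lay above 0 and 0 were 1.5-fold off. All mitochondrial fragments together took 4.499% of the control library and 4.96% of the NASH library. Within the mitochondrial total, a measure that scaling does not touch, mt-Cytb made up 17.6% in control and 20.9% in NASH, and mt-Co1 40.9% and 39.8%. The share of mt-Nd1 was 12.5% in control and 11.1% in NASH, and that of mt-Nd2 13.1% and 11.4%.

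TH-treated NASH against NASH set livers of hormone-treated mice beside untreated ones on the same diet. All 12 genes stood higher in TH-treated NASH, and they did so under each of the 5 scalings tried. mt-Nd6 was 1.83-fold higher (1.79 to 1.88), mt-Nd1 1.65-fold (1.64 to 1.66), mt-Nd4 1.503-fold (1.494 to 1.512) and mt-Cytb 1.401-fold (1.396 to 1.407). mt-Nd5 was 1.30-fold higher (1.29 to 1.30), mt-Nd2 1.24-fold (1.236 to 1.249) and mt-Co1 1.24-fold (1.239 to 1.246). Of the genes with whole-length copies all but mt-Nd4l stood further off than these, mt-Co2 at 2.54-fold (2.42 to 2.66), mt-Co3 at 2.47-fold (2.36 to 2.57), mt-Atp6 at 2.44-fold (2.32 to 2.57), mt-Nd3 at 2.19-fold (1.98 to 2.43), and mt-Nd4l stood at 1.61-fold (1.32 to 1.96).

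By the 1.5-fold rule 8 of the 12 genes were higher and 0 lower, against 8.49% of 11734 genes higher and 9.03% lower. The median log2 ratio was 0.65 over all 13 mitochondrial genes and −0.03 over all genes. Nuclear genes with a mean of 100 FPKM or more were higher in 23.2% of 682 cases and lower in 14.4%. Without the genes that have whole-length copies and mt-Atp8, 3 of 7 were past 1.5-fold, namely mt-Nd1, mt-Nd4 and mt-Nd6. mt-Nd4 lay at the threshold and stood at 1.492-fold when the 50 most abundant genes were left out of the scaling. Short genes as a whole also stood higher in this library: nuclear protein-coding genes under 1000 bases had a median log2 ratio of 0.24 and those of 4000 bases or more one of −0.11, and all mitochondrial genes are under 2000 bases. After centring on nuclear genes of like length, all 12 still lay above 0, from 0.27 to 1.10, but 5 passed 1.5-fold: mt-Co2, mt-Atp6, mt-Co3, mt-Nd3 and mt-Nd6. Of these 5, all but mt-Nd6 have a whole-length copy. mt-Nd1, at a log2 ratio of 0.72 and 957 bases long, was centred on genes under 1000 bases. Nuclear genes of 1000 to under 2000 bases had a median of 0.04, so whether mt-Nd1 passes depends on where the length groups meet. The part of gene length and of shared sequence in the result was not tested.

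Summed over the 13 genes, mitochondrial fragments took 6.72% of the TH-treated NASH library, 1.354-fold above NASH. Summed over the 7 genes left when mt-Atp8 and those with a whole-length copy are left out, the ratio was 1.3503. Adding the fragments of each copy to its gene gave 2.30-fold for mt-Co2 (2.23 to 2.37), 2.25-fold for mt-Co3 (2.19 to 2.32), 1.96-fold for mt-Atp6 (1.91 to 2.02), 2.34-fold for mt-Nd3 (2.16 to 2.54) and 1.26-fold for mt-Nd4l (1.10 to 1.43). The copies taken alone ran from 1.02-fold for Gm10222 (0.86 to 1.22) to 2.59-fold for Gm28438 (2.28 to 2.94). Neighbours did not move by the same factor. mt-Nd1 and mt-Nd2 stood at a ratio of 1.03 in control, 1.05 in NASH and 1.398 after thyroid hormone, and the share of mt-Co1 in all mitochondrial fragments was 36.5% in TH-treated NASH.

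**Figure D3:**
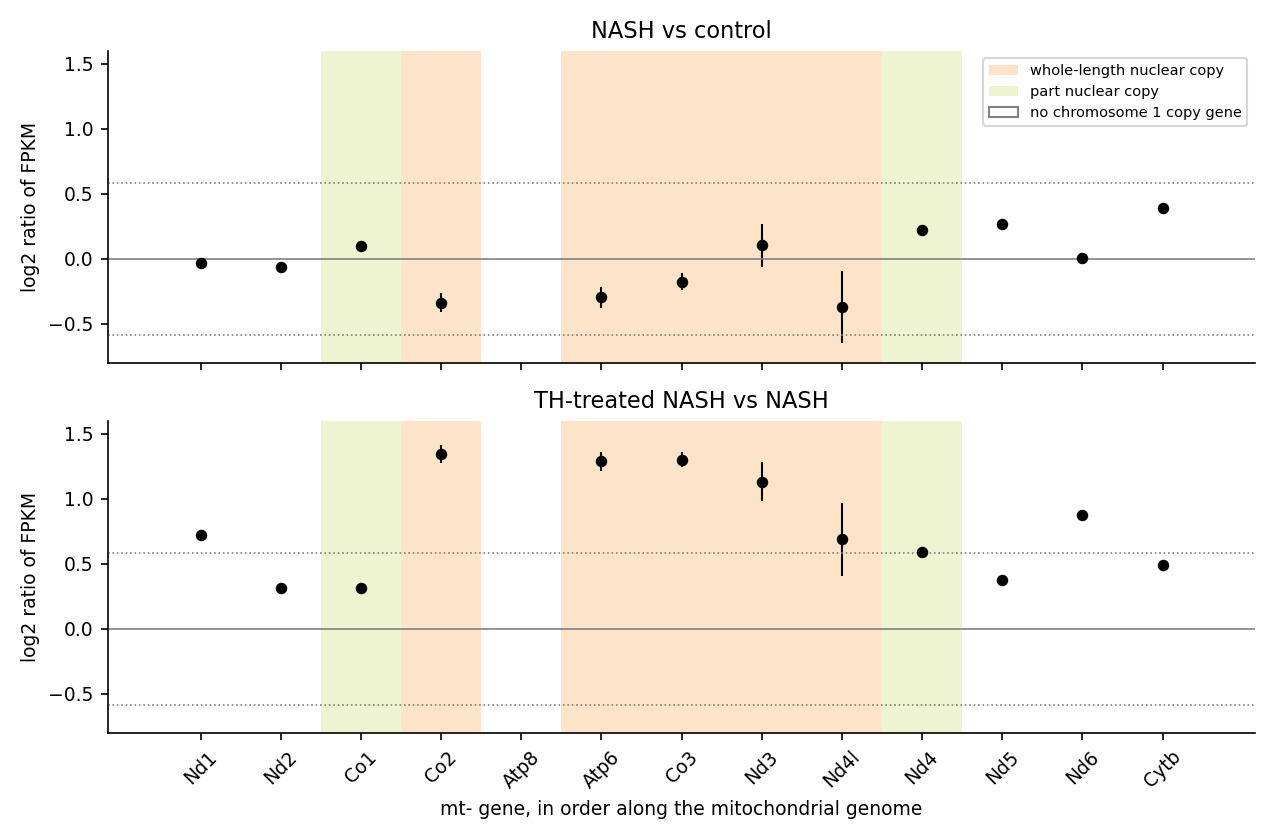
Log2 ratio of FPKM for 12 mitochondrial genes in genome order, NASH against control above and TH-treated NASH against NASH below, with exact 95% counting intervals. Dotted lines mark 1.5-fold and shading is as in the plot of levels. In the upper panel the points lie between 1.29-fold lower and 1.31-fold higher, and in the lower panel all lie above 0. Both panels use the NASH library, and mt-Atp8 is left out because it had 1 or 2 fragments.

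TH-treated NASH was also set against control. These 3 comparisons share libraries, so each is given by its own values. mt-Nd3 stood 2.35-fold higher (2.13 to 2.60), mt-Co3 2.18-fold (2.10 to 2.27), mt-Co2 2.01-fold (1.92 to 2.09) and mt-Atp6 1.99-fold (1.90 to 2.08). mt-Nd6 and mt-Cytb were both 1.84-fold higher, mt-Nd4 1.75-fold, mt-Nd1 1.61-fold and mt-Nd5 1.56-fold. mt-Co1, mt-Nd4l and mt-Nd2 lay nearer to control, at 1.33-fold, 1.246-fold and 1.19-fold. By the 1.5-fold rule 9 of 12 genes were higher and 0 lower, against 15.8% of 11474 genes higher and 6.98% lower. Under TMM scaling the count was 7, without mt-Nd1 at 1.41-fold and mt-Nd5 at 1.37-fold. Of the 682 nuclear genes with a mean of 100 FPKM or more, 22.4% were higher and 13.3% lower. After centring by gene length 3 remained past it, mt-Co3, mt-Nd3 and mt-Cytb, and 11 of 12 lay above 0. In this comparison the median log2 ratio of nuclear protein-coding genes under 1000 bases was 0.44.

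Strand was looked at through mt-Nd6, whose RNA in human cells is known to carry little or no polyA tail. Its last 14 bases overlap the end of mt-Nd5 on the other strand, and these are in capitals in the last 30 bases of both genes, each written 5′ to 3′ on its own strand.
mt-Nd5, chrMT:13536-13565, plus strand: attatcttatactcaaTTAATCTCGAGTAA
mt-Nd6, chrMT:13552-13581, minus strand: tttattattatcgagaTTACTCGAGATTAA
mt-Nd6 stood at 1.22% of the summed FPKM of the 12 plus-strand genes in control, 1.12% in NASH and 1.498% after thyroid hormone. On the log2 scale that ratio differed by −0.12 between NASH and control and by 0.42 between TH-treated NASH and NASH. Against its neighbour, mt-Nd5 stood 3.83, 4.58 and 3.24 times as high as mt-Nd6. The sources used here do not give the strand setting of the authors' counting, so RNA of mt-Nd6 cannot be told apart from RNA of the opposite strand at that place.

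By complex, the mitochondrial subunits were set beside the nuclear subunits of the same complexes, counting members at 1 FPKM or more in any library. In NASH against control 0 of 35 nuclear subunits of complex I, 0 of 9 of complex III, 0 of 11 of complex IV and 0 of 15 of ATP synthase were 1.5-fold off, with median log2 ratios of −0.00, 0.02, 0.04 and 0.00. In this comparison 10.5% of all genes were that much higher and 2.57% lower. Of nuclear genes with a mean of 100 FPKM or more, 5.43% were higher and 7.77% lower. The mitochondrial mt-Cytb, at 0.39, lay above the range of the nuclear complex III subunits. In complex I mt-Nd4 (0.22) and mt-Nd5 (0.27) lay above the nuclear range of −0.14 to 0.21, and mt-Nd4l (−0.35) below it. mt-Co2 (−0.34), mt-Co3 (−0.18) and mt-Atp6 (−0.29) lay below the nuclear ranges of their complexes. mt-Nd1, mt-Nd2, mt-Nd3, mt-Nd6 and mt-Co1 lay within theirs. In TH-treated NASH against NASH the nuclear medians were 0.36, 0.30, 0.25 and 0.38, beside −0.03 for all genes, 0.15 for nuclear genes with a mean of 100 FPKM or more and 0.24 for nuclear protein-coding genes under 1000 bases. Past 1.5-fold higher were 5 of 35 subunits of complex I, 1 of 9 of complex III, 1 of 11 of complex IV and 3 of 15 of ATP synthase, with 0 lower in these 4 lists. Over all genes 8.49% were that much higher and 9.03% lower. Of nuclear genes with a mean of 100 FPKM or more, 23.2% were higher and 14.4% lower. Ndufc1 and Ndufa13, accessory subunits of complex I, were 1.71-fold and 1.69-fold higher. Uqcrh, the hinge protein of complex III, was 1.77-fold higher, Cox7a2 of complex IV 1.56-fold and Atp5k of ATP synthase 1.79-fold. The mitochondrial subunits' log2 ratios ran from 0.31 to 1.11 in complex I and from 0.31 to 1.33 in complex IV. They stood at 0.49 for mt-Cytb and at 1.28 for mt-Atp6. The tops of the 2 ranges, mt-Nd3 and mt-Co2, have whole-length copies, as mt-Atp6 does. Without genes that have such copies, complex I ran from 0.31 to 0.87, and complex IV held mt-Co1 alone, at 0.31.

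Complex II, which has no mitochondrially encoded subunit, had 0 of 4 members higher and 1 lower in TH-treated NASH against NASH. Over all genes 9.03% were that much lower, and of nuclear genes with a mean of 100 FPKM or more 14.4%. The lower complex II gene was Sdha, the flavoprotein subunit, at 148 FPKM in control, 172 in NASH and 106 after thyroid hormone. Sdha stood 1.62-fold below NASH in TH-treated NASH (1.59 to 1.66). In levels mt-Cytb stood 36.4, 46.6 and 51.2 times above the median nuclear subunit of complex III in control, NASH and TH-treated NASH, and mt-Co1 37.4, 41.4 and 41.9 times above that of complex IV. mt-Atp6, which has a whole-length copy, stood at 0.463, 0.365 and 0.701 times the median nuclear subunit of ATP synthase.

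**Figure D4:**
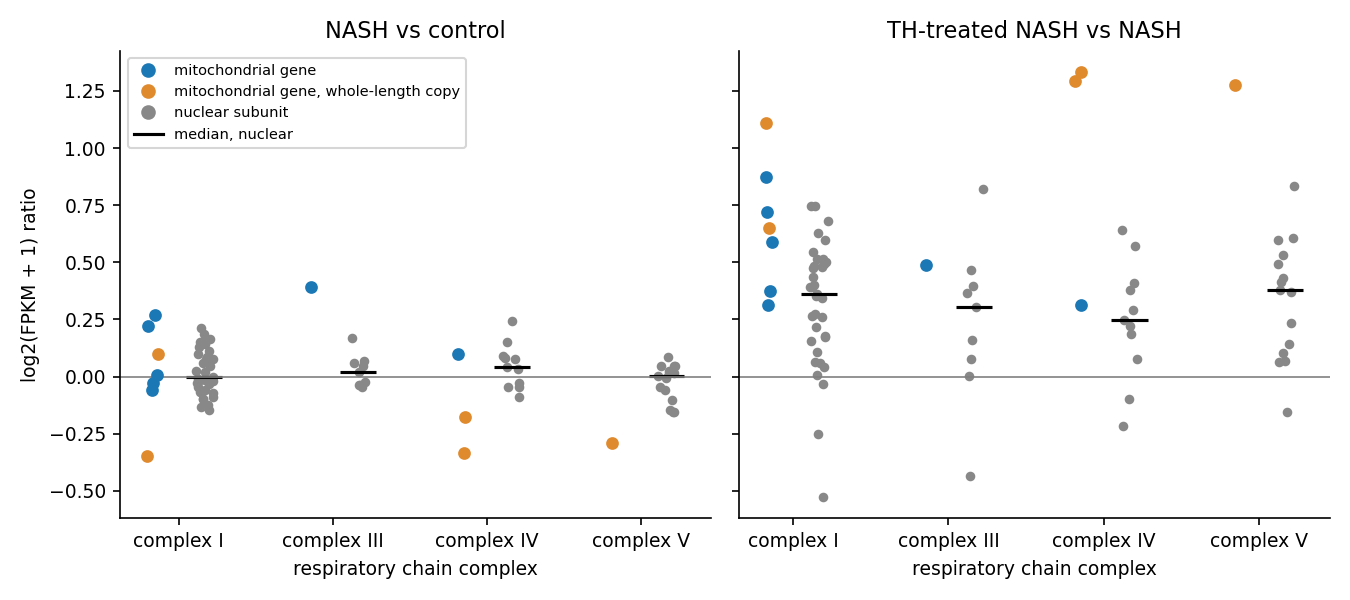
Log2(FPKM + 1) ratios of respiratory chain and ATP synthase subunits by complex, NASH against control on the left and TH-treated NASH against NASH on the right. Blue and orange points are mitochondrial genes, orange those with a whole-length nuclear copy, grey points nuclear subunits and bars their medians, and the nuclear medians lie between −0.00 and 0.04 on the left and between 0.25 and 0.38 on the right. The points are genes, not replicates, and mt-Atp8 is left out.

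The nuclear genes that copy, transcribe and process mitochondrial DNA and RNA were counted by the same 1.5-fold rule. Over all genes it took in 10.5% higher and 2.57% lower in NASH against control, and 8.49% higher and 9.03% lower in TH-treated NASH against NASH. Polrmt, the mitochondrial RNA polymerase, stood at 5.64 FPKM in control, 4.60 in NASH and 4.88 after thyroid hormone. Tfam, which packs mitochondrial DNA and starts its transcription, stood at 11.3, 10.7 and 10.7 FPKM, and Tfb2m, the second initiation factor, at 10.3, 9.49 and 10.4 FPKM. Of 8 transcription genes measured, 0 were 1.5-fold off in TH-treated NASH against NASH, with a median log2 ratio of 0.07. In NASH against control 1 was higher, the termination factor family member Mterf2, at 0.902 FPKM in control and 2.12 in NASH.

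Polg, the mitochondrial DNA polymerase, stood at 9.36, 10.3 and 12.9 FPKM and Twnk, the DNA helicase, at 8.63, 8.29 and 7.54 FPKM. Among 15 replication and maintenance genes 0 were off in NASH and 1 was higher in TH-treated NASH, the pyrimidine nucleotide carrier Slc25a33 at 1.63-fold (1.52 to 1.75), with a median of −0.12. Of the same list, Rrm2b was 1.81-fold lower in TH-treated NASH than in NASH (1.44 to 2.27) and Mgme1 1.61-fold lower (1.38 to 1.87). These are ratios of FPKM, and on the log2(FPKM + 1) scale both lay within 1.5-fold. Lrpprc, which stabilises mitochondrial mRNAs, stood at 25.3, 23.5 and 21.1 FPKM. Of 31 genes of mitochondrial RNA processing, modification and stability, 0 were off in NASH and 1 was lower in TH-treated NASH. That gene was Hsd17b10, a dehydrogenase that is also a subunit of mitochondrial RNase P, which cuts the 5′ ends of tRNAs, at 1.78-fold lower (1.71 to 1.85). Of 19 genes listed as mitochondrial aminoacyl-tRNA synthetases or related enzymes, the latter being Qrsl1, 0 were off in NASH. In TH-treated NASH Lars2, for leucine, was 1.57-fold higher (1.51 to 1.64) and Nars2, for asparagine, 2.16-fold lower (1.88 to 2.47).

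Of 10 regulators of mitochondrial biogenesis, the coactivator Ppargc1b was 2.14-fold lower in NASH (1.81 to 2.55) and the thyroid hormone receptor gene Thra 1.81-fold lower in TH-treated NASH than in NASH (1.603 to 2.05). Ppargc1a, the best known coactivator of this process, stood at 1.53 FPKM in control, 1.33 in NASH and 2.38 after thyroid hormone. As a ratio of FPKM it was 1.80-fold higher in TH-treated NASH than in NASH (1.58 to 2.04), but at this low level it lay within 1.5-fold on the log2(FPKM + 1) scale.

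Cell type markers were read beside these values and counted by the same rule, which over all genes took in 10.5% higher and 2.57% lower in NASH against control and 8.49% and 9.03% in TH-treated NASH against NASH. All 6 hepatocyte markers were above 1 FPKM in every library, with summed levels of 54395, 35986 and 33950 FPKM in control, NASH and TH-treated NASH, and 3 of 6 were lower in NASH than in control. In TH-treated NASH against NASH 1 was higher, Fgb at 1.56-fold, and 1 lower, Ttr at 1.54-fold, with a list median log2 ratio of 0.36. Alb, the largest part of the sum, was 1.36-fold lower. The sum over 5 Kupffer cell and macrophage markers was 59.6, 139 and 275 FPKM, with 5 of 5 higher in NASH than in control and 2 of 5 higher in TH-treated NASH than in NASH. The sum over 5 stellate cell markers was 65.9, 121 and 90.5 FPKM, with 4 of 5 higher in NASH and 2 of 5 lower in TH-treated NASH. The sum over 4 cholangiocyte markers was 3.30, 4.83 and 2.29 FPKM. Only 3 of these reached 1 FPKM in any library, and 0 did in TH-treated NASH. Of the 3, 1 was higher in NASH than in control and 2 were lower in TH-treated NASH than in NASH. The sum over 4 endothelial markers was 48.8, 54.4 and 61.2 FPKM, with 0 higher or lower in either comparison. The sum over 3 erythroid markers was 288, 357 and 1568 FPKM, with 2 of 3 higher and 1 lower in TH-treated NASH than in NASH. Of 5 muscle and 3 fat markers 0 reached 1 FPKM, and Ckm, Myh6 and Ucp1 were at 0 in all 3 libraries. In bulk liver fewer cells of a type and less RNA per cell cannot be told apart. The part of cell make-up in the mitochondrial values was not tested.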

How the data were processed

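Liver polyA RNA was sequenced in 3 libraries, 1 per group. TopHat2 and HTSeq are named in the submitters' processing notes; the sources used here give no versions, settings, strand mode or genome build. The authors deposited FPKM for each gene, beside gene length. FPKM times gene length came in whole multiples of 1 step per library, the worth of 1 fragment, for 100% of values above 0 within 0.01 fragment, and fragments were recovered from it. Depth limits the genes with few fragments: 3 fragments were taken as the floor.

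The members, nuclear lists and tests were chosen with earlier results of these data known. All 13 genes of chromosome MT are named. Of each of 19 lists up to 4 members with the largest log2(FPKM + 1) ratio were marked for naming, plus Polrmt, Tfam, Tfb2m, Polg, Twnk and Lrpprc. Not all genes so marked are named. Some marker genes are given only within their sums, and some subunits and some genes of the other lists only within counts. Others named follow counts of 5 or fewer or markers at 0, after their values were seen. List symbols were matched through the table's names or GENCODE M21 gene IDs; 15 of 219 entries were second symbols of ATP synthase genes with no match. Log2 ratios used a pseudocount of 1 FPKM, and genes reaching 1 FPKM in either library compared were counted from 1.5-fold on. Folds are ratios of FPKM with exact 95% conditional binomial (Clopper-Pearson) intervals, and levels have exact Poisson intervals. These treat each fragment as independent and cover counting error only. PCR copies are no independent molecules, so the intervals may be too narrow even for counting error. Members were compared with GENCODE M21 transcripts by BLAST 2.17.0 (megablast) and base by base. Python 3.11.15, numpy 2.4.6, pandas 2.3.3 and scipy 1.17.1 were used, and the steps were tested on simulated data. Alternatives were other scalings, pseudocounts, filters and thresholds; leaving out genes with nuclear copies, adding the copies' fragments and centring by gene length were chosen after seeing the data.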

Additional observations from a re-analysis of the deposited data

How the results depend on the processing

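The summed mitochondrial log2 ratio of NASH against control, 0.14 as deposited, was 0.15 when scaled to fragments outside the mitochondrial genome, 0.12 without the 50 most abundant genes, −0.076 under median-of-ratios and −0.077 under TMM scaling, so its direction rested on the scaling. For TH-treated NASH against NASH it was 0.44 as deposited and, under the same 4 scalings in that order, 0.46, 0.43, 0.48 and 0.47. It was 0.43 without mt-Atp8 and the genes with a whole-length copy and 0.44 with the copies' fragments added. For TH-treated NASH against control it was 0.58, then 0.61, 0.55, 0.40 and 0.39, and 0.58 under both of the last settings. Of the counts past 1.5-fold, NASH against control gave 0, and 3 at the lower of the other thresholds tried (1 higher, 2 lower). TH-treated NASH against NASH gave 8, and 4 at 2-fold, 3 of 7 genes without whole-length copies and mt-Atp8, and 5 when centred by gene length. Of those 5, all but mt-Nd6 have a whole-length copy. TH-treated NASH against control gave 9, and 2 at 2-fold, 5 of 7 without those genes and 3 when centred. The pseudocounts of 0.1 and 5 FPKM, other filters on low values and the scalings tried on these counts moved them by at most 2 genes, which were mt-Nd1 and mt-Nd5 under TMM scaling in TH-treated NASH against control. The log2 ratio of mt-Nd6 to the plus-strand genes in NASH against control was −0.12, and −0.24 against their median. The planned ratio of rRNA to mRNA was not run, since the 13 rows are all protein-coding, which also makes the protein-coding setting the same as the whole. No paired analysis was possible because each group has 1 library.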

Other observations

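Outside chromosome 1, mitochondrial genes had more distant nuclear relatives. In all, 20 annotated nuclear genes matched a mitochondrial gene at 80% identity or more over at least 100 bases. These 20 include the 7 copies on chromosome 1, and 17 of them were in the deposited table. Gm28927, also on chromosome 1, matches part of mt-Co3 at 81.6% and was at 0 fragments in all 3 libraries. Gm13340 on chromosome 2 spans all of mt-Co1 at 97.6% identity and stood at 4.198 FPKM in control, 3.25 in NASH and 5.24 after thyroid hormone, on 354, 236 and 310 fragments. Gm13341, on the same chromosome, matches mt-Co2 at 95.9% and had 75, 51 and 69 fragments. Gm13339, also on chromosome 2, matches part of mt-Nd2 at 96.7% and had 23, 10 and 25. The relatives of mt-Cytb, mt-Nd5 and mt-Nd6 that the table lists, Gm11410, Gm11407 and Gm11408 on chromosome 4 and Gm4076 on chromosome 13, were at 0 fragments in all 3 libraries. They are 92.9%, 92.4%, 93.6% and 95.2% identical to their mitochondrial genes.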
